A study of Rattus norvegicus with 8 samples.

Results

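The 9 genes described here are part of interferon signalling and were measured in perfused rat liver. They are Trim14, Mavs, Irf3, Irf7, Stat2, Irf9, Irf1, Isg15 and Mx1. They were chosen by gene symbol, with 1 probe set for each, and all 9 were found among the 14511 named genes of the arrays. Trim14 entered the set because of its difference between the buffers on these same arrays, and the other 8 were added as interferon genes when results of these data were known. The hypoosmotic against normoosmotic values of the 9 are therefore given as a description, with no test.

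The study perfused livers of male Wistar rats aged 6 to 10 weeks with Krebs-Henseleit buffer, a salt solution buffered by bicarbonate. Of the 8 arrays, 4 came from livers that received hypoosmotic buffer (225 mosm/L), in which liver cells take up water, and 4 from livers that received normoosmotic buffer (305 mosm/L). All 8 belong to the 180 min time point, and no other agent is named for either group. Nothing in the labels ties each array to an animal of its own, so the p-values rest on a spread between samples that may be technical in part, and the number of arrays limits the precision. An isolated perfused liver keeps its hepatocytes, macrophages and endothelium, and the RNA came from homogenised tissue.

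Values are log2 intensities, so a difference of 1 is 2-fold. Array medians lay between 3.92 and 4.05. All 8 hepatocyte markers were measured, with gene means from 9.82 to 13.08. Markers of neutrophils (6 of 6) and most of those of T and NK cells (7 of 12) had means under 3.07. That value, below which 95% of 1105 odorant receptor genes lay, served as a near-background level. Across all genes hypoosmotic replicate 3 stood apart from the other arrays, at -28.5 on the second principal component against -6.60 to 15.3 for the other 7.

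Interferons are secreted when a cell senses foreign nucleic acid. RNA sensors such as MDA5 act through MAVS, an adaptor on the outer mitochondrial membrane, which leads to phosphorylation of the latent factors IRF3 and IRF7. The secreted interferon binds receptors that activate Janus kinases and a complex that holds STAT2 and IRF9, which switches on interferon-stimulated genes such as Isg15 and Mx1. TRIM14 is a member of the tripartite motif family that lacks the RING domain of most of its relatives, and in human cells it joins MAVS at the mitochondrion and is itself raised by interferon. In liver, hepatocytes and Kupffer cells both carry this system.

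Trim14 had log2 intensities of 6.62, 7.06, 6.83 and 6.84 in hypoosmotic livers, against 5.17, 5.89, 5.44 and 5.45 in normoosmotic livers. Every hypoosmotic array lay above every normoosmotic one, with a gap of 0.73 between the lowest hypoosmotic and the highest normoosmotic value. The means were 6.84 ± 0.18 in hypoosmotic and 5.49 ± 0.30 in normoosmotic livers (SD, n = 4 each). The difference was 1.35 ± 0.15 (SE) on the log2 scale, or 2.55-fold. With 1 array left out it stayed between 1.24 and 1.48. In homogenised liver, more cells that express a gene and more RNA per cell cannot be told apart. Of 9 marker lists, that of sinusoidal endothelium alone held genes that passed by limma (p adjusted over all genes under 0.05), as 7.07% of all genes did. The summed linear intensity of its markers was 765 to 1050 in hypoosmotic and 693 to 831 in normoosmotic livers, and 5 of the 6 measured were higher in hypoosmotic livers, with a median difference of 0.34. The groups did not overlap for 3 of the 6, against 13.5% of all genes, and 4 of the 6 had an unadjusted p under 0.05, against 20.7% of all genes. After adjustment 1 rose (Kdr, 7.53 ± 0.24 in hypoosmotic against 6.87 ± 0.25 in normoosmotic livers) and 1 fell (Oit3, 7.08 ± 0.12 against 7.54 ± 0.13), with limma adjusted p of 0.0280 and 0.0294; both were named after their values were seen. Of the 6 stellate cell markers 0 passed, and 5 were higher in hypoosmotic livers, with a median difference of 0.21. By unadjusted limma p 2 of these 6 lay under 0.05, in opposite directions (33.3%, against 20.7% of all genes). Their summed intensity was 336 to 647 in hypoosmotic and 456 to 472 in normoosmotic livers. The part of endothelial or stellate cells in the Trim14 difference was not tested.

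None of the other 8 members had groups that stood apart, so 1 of the 9 did, where 13.5% of all genes had groups without overlap. This contrast was used in choosing the members, and nothing is read from the count.

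**Figure D1:**
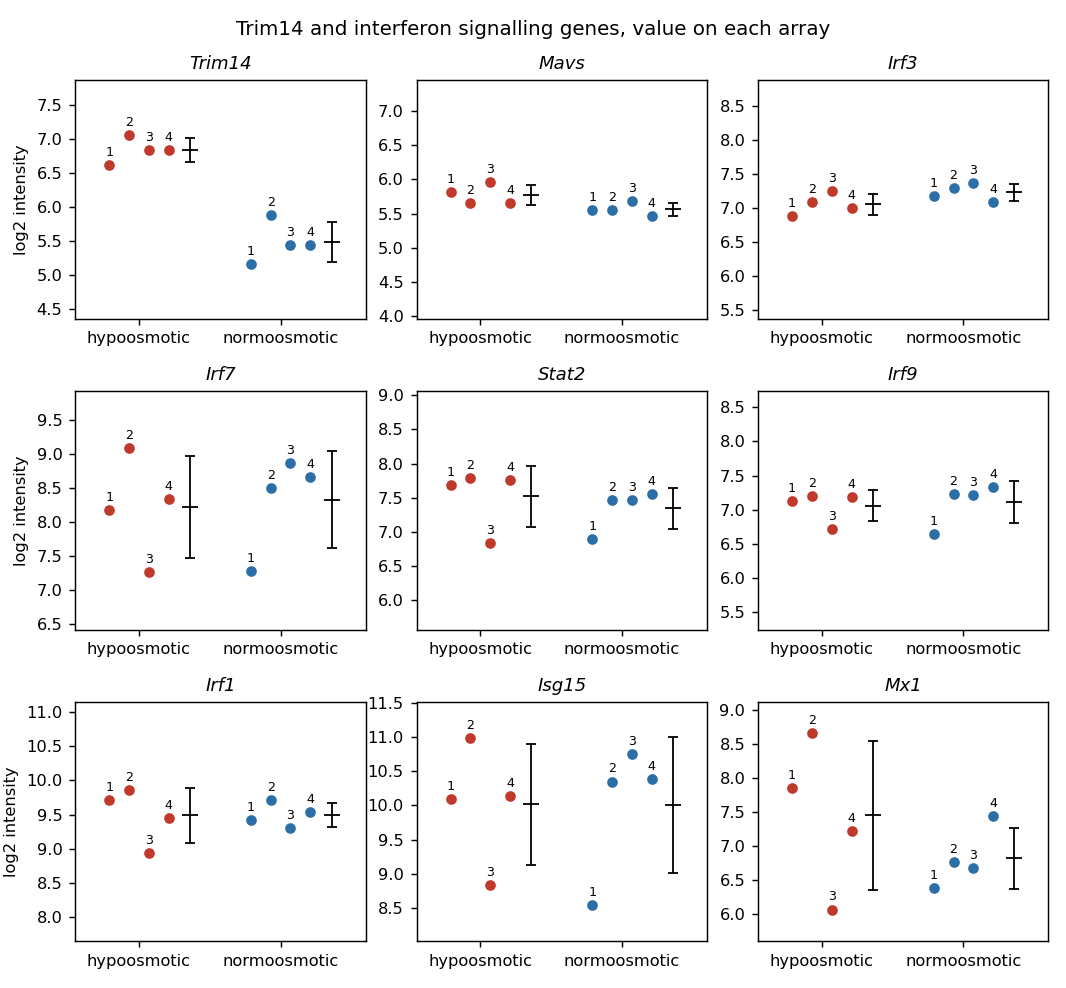
Log2 intensity (vertical axis, each panel spanning the same 3.5 units) of the 9 genes on each array, with hypoosmotic arrays (red) left of normoosmotic arrays (blue). Digits are replicate numbers, and bars give the mean and SD of 4 arrays. Trim14 has separate groups with means of 6.84 and 5.49, while Isg15 and Irf7 spread widely within both groups and Mx1 within the hypoosmotic group.

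Mavs, the adaptor that TRIM14 joins, had values of 5.82, 5.66, 5.96 and 5.65 in hypoosmotic livers, against 5.55, 5.55, 5.69 and 5.46 in normoosmotic livers. The hypoosmotic values tended to be higher, but the groups overlapped by 0.04, with a difference of 0.21 ± 0.11 (SE). Irf3, the factor that is present before infection and acts first, had values of 6.89, 7.09, 7.25 and 7.0 in hypoosmotic livers, against 7.17, 7.30, 7.37 and 7.09 in normoosmotic livers. Its groups overlapped as well, with a difference of -0.18 ± 0.11. Within groups, Mavs and Irf3 were among the steadier genes. Their pooled SD stood at percentiles 19.3 and 27.2 of all genes.

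Irf7, the factor that amplifies the response and is itself interferon-induced, behaved differently within the groups. Its values were 8.18, 9.08, 7.26 and 8.33 in hypoosmotic livers, against 7.28, 8.50, 8.87 and 8.66 in normoosmotic livers. One array in each group was far below the rest, namely hypoosmotic replicate 3 and normoosmotic replicate 1, and the difference between means was -0.12 ± 0.39 (SE). It was -0.46 without normoosmotic replicate 1 and 0.20 without hypoosmotic replicate 3, so that 1 array decided its sign.

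Isg15 encodes a ubiquitin-like protein that is attached to other proteins during the interferon response. It had values of 10.10, 10.99, 8.83 and 10.14 in hypoosmotic livers, against 8.54, 10.35, 10.75 and 10.39 in normoosmotic livers. The same arrays were low, so that the range within a group was 2.16 (4.47-fold) in hypoosmotic and 2.21 (4.63-fold) in normoosmotic livers. Against this spread the difference of means was 0.01 ± 0.50, and it ran from -0.48 without normoosmotic replicate 1 to 0.40 without hypoosmotic replicate 3.

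Stat2 and Irf9 encode subunits of the complex that binds the promoters of interferon-stimulated genes. Stat2 had values of 7.68, 7.79, 6.84 and 7.76 in hypoosmotic livers, against 6.90, 7.46, 7.46 and 7.56 in normoosmotic livers. Irf9 had values of 7.13, 7.20, 6.72 and 7.18 in hypoosmotic livers, against 6.65, 7.23, 7.21 and 7.33 in normoosmotic livers. For both genes the low arrays were again hypoosmotic replicate 3 and normoosmotic replicate 1, and the groups overlapped. The differences of means were 0.17 ± 0.22 (SE) for Stat2 and -0.05 ± 0.16 for Irf9, and that of Irf9 reached 0.06 without hypoosmotic replicate 3.

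Mx1 encodes a dynamin-like GTPase that restricts viruses. It had values of 7.85, 8.65, 6.07 and 7.22 in hypoosmotic livers, against 6.39, 6.77, 6.68 and 7.44 in normoosmotic livers. The hypoosmotic group spanned 2.58 and enclosed the whole normoosmotic group, with a difference of means of 0.63 ± 0.44 (SE). That difference was 0.23 without hypoosmotic replicate 2 and 1.09 without hypoosmotic replicate 3. Irf1, a factor induced by interferon gamma, had values of 9.71, 9.86, 8.94 and 9.45 in hypoosmotic livers, against 9.42, 9.72, 9.30 and 9.54 in normoosmotic livers. Its means were 9.49 in both groups. The difference was 0.18 without hypoosmotic replicate 3 and -0.13 without hypoosmotic replicate 2.

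Irf7 and Isg15 kept almost the same order over the 8 arrays. Pearson's r was 0.989 (exact permutation p = 4.96e-05, both tails, adjusted p = 0.00139 over 28 pairs) and Spearman's rho was 0.976 (adjusted exact p = 0.0111). Without the arrays farthest from the median of Irf7, hypoosmotic replicate 3 and normoosmotic replicate 1, r was 0.979 over the remaining 6, and with group means removed it was 0.993 over all 8. The 28 pairs were those among the 8 members other than Trim14, and no other pair passed by Pearson's r. Stat2 and Mx1 passed by rank alone (rho = 0.922, adjusted exact permutation p = 0.0347; r = 0.827, adjusted p = 0.0740), with r = 0.796 without the same 2 arrays. Several other pairs with a high r rested on those 2 arrays. Without them r went to 0.376 for Irf7 with Irf9, against 0.917 over all 8 arrays. It went to 0.194 for Irf9 with Isg15, against 0.932, and to -0.0495 for Irf7 with Stat2, against 0.848. For Trim14, chosen on the contrast of the groups, no such coefficient was computed, with or without group means removed. Over all 8 arrays its values fall into 2 separate clusters of 4 arrays. On hypoosmotic replicate 3, where Isg15 was 8.83, Trim14 was 6.83, close to its group mean. On normoosmotic replicate 1 both were the lowest of their group, and on hypoosmotic replicate 2 both were the highest (Trim14 7.06, Isg15 10.99). On normoosmotic replicate 3, where Isg15 was the highest of its group at 10.75, Trim14 was 5.44. A relation of Trim14 to Isg15 within groups was not tested.

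**Figure D2:**
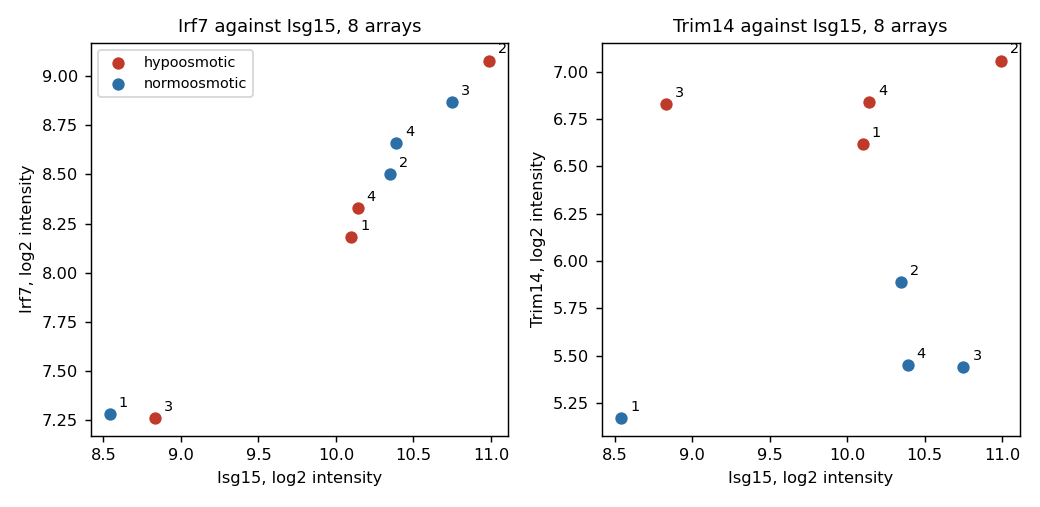
Log2 intensity of Irf7 (left) and Trim14 (right) against that of Isg15 on the 8 arrays, hypoosmotic in red and normoosmotic in blue, with replicate numbers. Irf7 follows Isg15 across both groups (r = 0.989). Trim14 lies between 6.62 and 7.06 on hypoosmotic and between 5.17 and 5.89 on normoosmotic arrays, and no coefficient was computed for it.

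Promoter sequences are shown for the interferon factors in which a known response element was found, because Irf7 and Irf9 carried the array pattern above. Windows of 300 bases, from 250 before to 50 after the start (RefSeq, build GRCr8), were at hand for 7 of the 9 members, not for Trim14 and Isg15. Each was searched on both strands for the core of the interferon-stimulated response element, which is GAAA, any 2 bases and GAAA again and which the complex with STAT2 and IRF9 binds, and for the gamma-activated sequence TTCNNNGAA, which STAT dimers bind. Of 33469 such windows of the genome 3.92% hold the first and 8.87% the second. Capitals mark the matches, and sequences are written 5′ to 3′ on the strand of the gene. In Irf7 (chr1:205799974-205800273, minus strand) the response element core lies 69 to 60 bases before the start. In Irf9 (chr15:33065586-33065885, plus strand) a gamma-activated sequence lies 99 to 91 bases before it, and in Irf1 (chr10:38417685-38417984, plus strand) 142 to 134 bases before it.
Irf7: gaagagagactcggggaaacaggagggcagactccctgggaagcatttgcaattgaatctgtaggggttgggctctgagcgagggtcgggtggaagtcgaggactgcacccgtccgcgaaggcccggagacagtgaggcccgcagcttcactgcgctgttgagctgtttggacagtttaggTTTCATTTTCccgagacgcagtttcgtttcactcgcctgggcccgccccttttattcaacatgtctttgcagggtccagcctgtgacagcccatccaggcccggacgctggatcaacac
Irf9: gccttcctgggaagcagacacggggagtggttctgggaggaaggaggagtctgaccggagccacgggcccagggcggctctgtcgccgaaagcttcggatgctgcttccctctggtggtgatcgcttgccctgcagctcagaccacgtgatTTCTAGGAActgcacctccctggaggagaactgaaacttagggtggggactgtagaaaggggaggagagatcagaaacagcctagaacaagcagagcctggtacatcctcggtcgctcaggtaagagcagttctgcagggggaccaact
Irf1: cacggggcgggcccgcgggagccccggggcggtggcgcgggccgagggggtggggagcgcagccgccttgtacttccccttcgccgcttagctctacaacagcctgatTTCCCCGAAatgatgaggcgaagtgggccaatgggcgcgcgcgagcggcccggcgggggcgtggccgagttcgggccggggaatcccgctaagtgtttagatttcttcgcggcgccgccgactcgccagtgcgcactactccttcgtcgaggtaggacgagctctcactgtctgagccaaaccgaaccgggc
The windows of Mavs, Irf3, Stat2 and Mx1 held neither set of letters. A match is a description of the sequence and does not show that a factor was bound.

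The wider pathway was described with 9 lists that left out the members, of which 114 of 144 genes were measured. Of these 6 rose and 3 fell by limma with adjustment over all genes and a threshold of 0.05. Together these were 7.89%, where 7.07% of all genes passed, 2.45% as higher and 4.62% as lower in hypoosmotic livers. An unadjusted p under 0.05 was found for 20 of the 114 (17.5%), against 20.7% of all genes. The median difference was 0.02 for the lists and 0.02 for all genes. The count of rises was 1 when hypoosmotic replicate 2 or normoosmotic replicate 3 or 4 was left out, 2 without hypoosmotic replicate 1 or normoosmotic replicate 2, and 3 without normoosmotic replicate 1. With hypoosmotic replicate 3 left out it was 4, and 4 also after each array was centred on its median. The count of falls was 1 without any of the normoosmotic arrays, 2 without hypoosmotic replicate 1, 3 or 4, and 5 after median centring or with array weights.

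**Figure D3:**
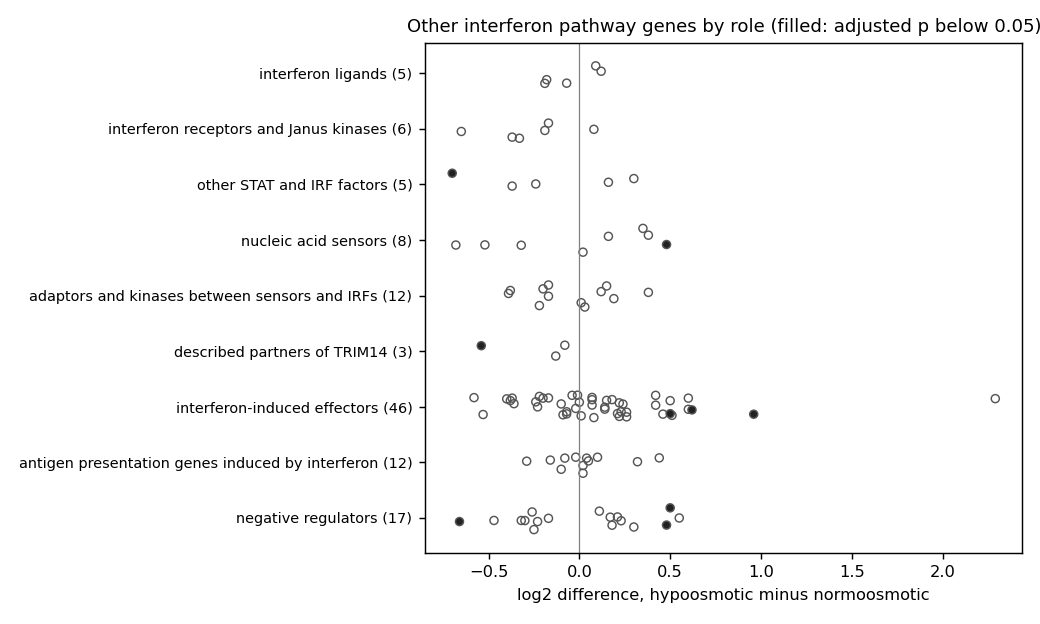
Log2 difference, hypoosmotic minus normoosmotic (horizontal axis), of each measured gene of the 9 lists, 1 list per row with its number of genes; vertical scatter within a row carries no meaning. Filled points passed (limma, adjusted p under 0.05), 6 on the right and 3 on the left of 0, and the point beyond 2 is Ifit1, which was high on 1 array only.

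Of the 5 interferon ligand genes measured 0 passed, and 0 had an unadjusted p under 0.05 (limma). Ifnb1, interferon beta, was 3.36 ± 0.07 in hypoosmotic and 3.27 ± 0.07 in normoosmotic livers (SD, n = 4 each), little above the near-background level of 3.07. Ifng, interferon gamma, was 4.66, 5.41, 3.83 and 3.36 in hypoosmotic livers, against 4.39, 4.38, 4.32 and 4.44 in normoosmotic livers, so that the 4 hypoosmotic arrays scattered around a tight normoosmotic group. Among 6 receptor and Janus kinase genes 0 passed, and by unadjusted limma p 3 lay under 0.05, as did 20.7% of all genes. The receptor gene Ifnar1 had a difference of -0.19 ± 0.17 (SE, adjusted p = 0.607). The kinase gene Jak1, named after its values were seen, had tight groups of 9.14 ± 0.05 in hypoosmotic and 9.46 ± 0.08 in normoosmotic livers and an adjusted p of 0.0591. It passed after median centring (0.0398), with array weights (0.0487) and when the dimmest 30% of genes were left out (0.0480), but in 0 of 8 leave-one-out fits (0.0743 to 0.146) and not with the replicate number as a block (0.105). Ifnar2 was not analysed here.

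Among the other STAT and IRF factors 1 of 5 fell and 0 rose, where 7.07% of all genes passed, 4.62% as lower. By unadjusted limma p 3 of the 5 lay under 0.05, not all in the same direction, against 20.7% of all genes. The groups did not overlap for 2 of the 5, against 13.5% of all genes. Irf8, a factor of macrophages and dendritic cells, had values of 6.95, 7.33, 6.31 and 6.96 in hypoosmotic livers, against 7.45, 7.66, 7.61 and 7.65 in normoosmotic livers, which did not overlap. Its difference was -0.70 ± 0.18 (SE, adjusted p = 0.0407), and in 2 of 8 leave-one-out fits it passed, with an adjusted p of up to 0.101 without normoosmotic replicate 4. Of 10 measured Kupffer cell and macrophage markers 0 passed, and 0 had an unadjusted p under 0.05 (limma), with summed linear intensities of 716 to 1260 in hypoosmotic and 694 to 1000 in normoosmotic livers. Plasmacytoid dendritic cell markers summed to 139 to 241 in hypoosmotic and 210 to 263 in normoosmotic livers. Of these 0 of 4 passed, and 1 had an unadjusted limma p under 0.05 (25.0%, against 20.7% of all genes). This was Tlr7, which the sensor list also holds. The part of these cells in the fall of Irf8 was not tested.

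Of the 8 measured nucleic acid sensors 1 rose (12.5%, against 7.07% of all genes that passed). This was Aim2, a sensor of cytosolic DNA, at 2.74 ± 0.11 in hypoosmotic and 2.26 ± 0.13 in normoosmotic livers (adjusted p = 0.0241). Both levels lay under the near-background level, and it passed in 3 of 8 fits without 1 array (up to 0.0670, without normoosmotic replicate 1). Ifih1, which encodes the RNA sensor MDA5, was 9.75 ± 0.63 in hypoosmotic and 10.06 ± 0.51 in normoosmotic livers (adjusted p = 0.661). Rigi and Cgas were not analysed here.

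Between the sensors and the IRFs, 0 of 12 adaptor and kinase genes passed, and 1 had an unadjusted p under 0.05 (limma). That was Tbk1, the kinase of IRF3, with groups that did not overlap, 7.50 ± 0.27 in hypoosmotic and 7.90 ± 0.15 in normoosmotic livers (difference -0.39 ± 0.14 SE, adjusted p = 0.135). Ikbkg, which encodes NEMO, the regulatory subunit that human TRIM14 brings to MAVS, had a difference of 0.19 ± 0.13 (adjusted p = 0.479), and Sting1 was not analysed here. Of 3 other genes whose proteins are described partners of TRIM14, 1 fell (33.3%, against 7.07% of all genes that passed). Usp14, a deubiquitinase of the proteasome, was 6.50, 6.19, 5.85 and 6.42 in hypoosmotic livers, against 6.72, 6.77, 6.74 and 6.90 in normoosmotic livers. All hypoosmotic arrays were lower, by 0.54 ± 0.14 on average (SE, adjusted p = 0.0418), and the gene passed in 2 of 8 fits without 1 array (up to 0.110, without normoosmotic replicate 4). Wrnip1 (-0.13 ± 0.16, adjusted p = 0.73) and Ppp6c (-0.08 ± 0.12, adjusted p = 0.804) did not pass.

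Of 46 interferon-induced effectors 3 rose and 0 fell (6.52%, against 7.07% of all genes, 2.45% as higher and 4.62% as lower). Their median difference was 0.08. By unadjusted limma p 4 of the 46 lay under 0.05 (8.7%, against 20.7% of all genes). The groups did not overlap for 4 (8.7%, against 13.5% of all genes). Ly6e, a membrane-anchored protein that limits entry of some viruses, was 7.67, 8.06, 7.26 and 7.65 in hypoosmotic livers, against 6.28, 6.95, 6.59 and 7.0 in normoosmotic livers. The groups stood apart, with a 1.94-fold difference (0.96 ± 0.19 SE on the log2 scale, adjusted p = 0.0157). It passed in 7 of 8 fits without 1 array, the exception being without normoosmotic replicate 3 (0.0509). Ube2l6, the conjugating enzyme for ISG15, was 7.10 ± 0.32 in hypoosmotic and 6.48 ± 0.17 in normoosmotic livers (SD, n = 4 each; adjusted p = 0.0398). Shisa5, an interferon-inducible protein of the endoplasmic reticulum, was 6.24 ± 0.21 in hypoosmotic and 5.74 ± 0.12 in normoosmotic livers (adjusted p = 0.0330). After median centring neither passed (adjusted p = 0.0688 and 0.0508), and with 1 array left out Ube2l6 passed in 1 fit (up to 0.117, without normoosmotic replicate 3) and Shisa5 in 2 (up to 0.0876, without normoosmotic replicate 1), of 8. Among 12 antigen presentation genes 0 passed, and 0 had an unadjusted p under 0.05 (limma).

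Most effectors were low on the same arrays as Isg15. Their median pooled SD was 0.43, against 0.18 for all genes, and 31 of the 46 were among the 1452 genes of the array set with the highest SD. Hypoosmotic replicate 3 was the lowest hypoosmotic array for 35 of the 46 (76.1%), where it was the lowest for 28.3% of all genes, and normoosmotic replicate 1 the lowest normoosmotic array for 35 (76.1%), against 21.6% of all genes. At the other end, hypoosmotic replicate 2 was the highest of its group for 36 (78.3%, against 22.9% of all genes) and normoosmotic replicate 4 for 32 (69.6%, against 24.3%). Among the genes named for this after their values were seen, Ifit3 was 9.93, 10.42, 8.48 and 9.83 in hypoosmotic livers, against 8.56, 9.80, 9.97 and 10.33 in normoosmotic livers. Rsad2, which encodes the antiviral enzyme viperin, was 11.39, 11.82, 10.63 and 11.56 in hypoosmotic livers, against 9.62, 10.98, 10.98 and 11.40 in normoosmotic livers. Both were lowest on the arrays named above in each group, and both groups overlapped. Other lists shared part of this order. Of 12 antigen presentation genes, hypoosmotic replicate 3 and normoosmotic replicate 1 were each the lowest of their group for 7 (58.3%). Hypoosmotic replicate 3 was also lowest for all measured adaptor and kinase genes but Traf6 and Tbkbp1. The same held for all measured receptor and Janus kinase genes but Jak1. Normoosmotic replicate 1 was the lowest of its group for no gene of either list.

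Marker lists of other cell types are set beside this pattern by their summed linear intensity. Kupffer cell and macrophage markers summed to 883, 1260, 907 and 716 in hypoosmotic livers, against 1000, 847, 694 and 926 in normoosmotic livers, so they were highest on hypoosmotic replicate 2 but not lowest on hypoosmotic replicate 3 or normoosmotic replicate 1. Plasmacytoid dendritic cell markers summed to 189, 241, 139 and 157 in hypoosmotic livers, against 242, 237, 210 and 263 in normoosmotic livers. Their lowest and highest hypoosmotic arrays and their highest normoosmotic array were those of the effectors, and their lowest normoosmotic array was not. Tlr7, which the sensor list also holds, had the highest mean of the 4 markers (6.69, 7.23, 5.79 and 6.47 in hypoosmotic livers). Next was Tcf4 (6.17, 6.31, 6.12 and 5.82), which was lowest on hypoosmotic replicate 4. Spib and Ccr9 had group means of at most 3.14, so the order of this sum rested mostly on Tlr7. Endothelial markers were highest on hypoosmotic replicate 3 (1050) and lowest on normoosmotic replicate 1 (693). Hepatocyte markers ranged from 35900 to 37600 in hypoosmotic and from 36700 to 39100 in normoosmotic livers. The part of other cells in the pattern was not tested. Short sites of the response element core from the promoters of Ifit3 (chr1:241527076-241527375, plus strand, 44 to 35 bases before the start) and Rsad2 (chr6:48788071-48788370, minus strand, 147 to 138 bases before it) are set beside that of Irf7, with 10 flanking bases on each side.
Irf7: acagtttaggTTTCATTTTCccgagacgca
Ifit3: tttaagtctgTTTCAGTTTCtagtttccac
Rsad2: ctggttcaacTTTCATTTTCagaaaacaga
The matches of Irf7 and Rsad2 have the same 10 letters. Of the effectors only Ifit3 and Rsad2 were searched, both named after their values were seen. Outside the members Trim21 was searched as well, and its window also held the core. The windows of Stat2 and Mx1, which were lowest on the same arrays, held none.

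**Figure D4:**
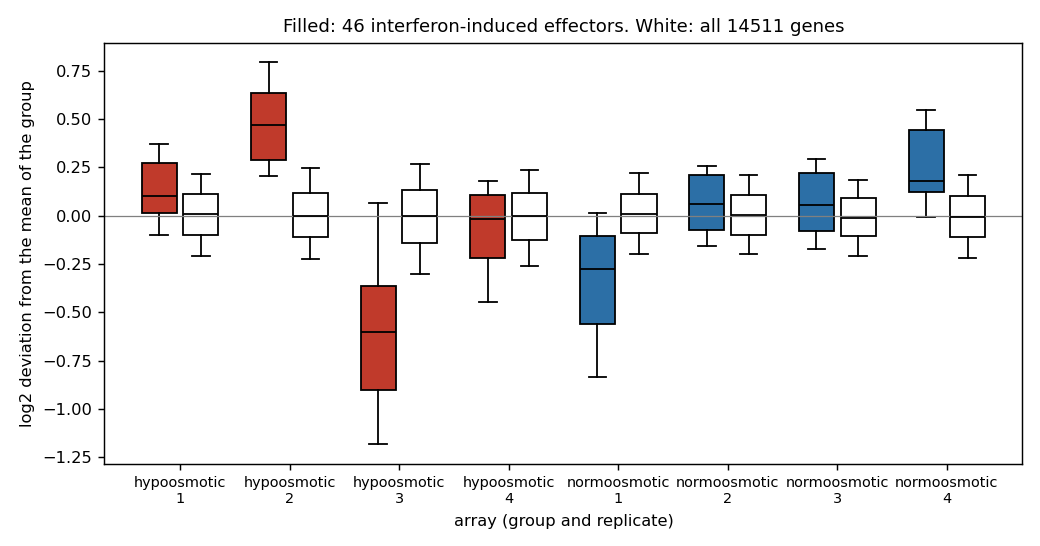
Deviation of each gene from the mean of its own group (vertical axis, log2) on each array, for 46 interferon-induced effectors (filled boxes, red hypoosmotic, blue normoosmotic) and all 14511 genes (white boxes). Boxes span the quartiles, lines are medians and whiskers reach the 10th and 90th percentiles; the effectors have medians of -0.60 on hypoosmotic replicate 3 and -0.28 on normoosmotic replicate 1, where all genes are at 0.00 and 0.01.

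Among 17 negative regulators 2 rose and 1 fell (17.6%, against 7.07% of all genes), and 6 had groups without overlap (35.3%, against 13.5% of all genes). Smurf1, a ubiquitin ligase that targets MAVS for degradation in human cells, was 5.17, 5.03, 4.76 and 4.88 in hypoosmotic livers, against 5.66, 5.46, 5.81 and 5.55 in normoosmotic livers. It fell by 0.66 ± 0.12 (SE) on the log2 scale (adjusted p = 0.0111), without overlap, and passed in all 8 leave-one-out fits. Rnf125, a ligase for the RNA sensors and MAVS, was 10.09, 10.12, 10.11 and 10.05 in hypoosmotic livers, against 9.66, 9.82, 9.39 and 9.52 in normoosmotic livers. It rose by 0.50 ± 0.11 (adjusted p = 0.0233), with very even hypoosmotic arrays, and passed in 4 of the 8 fits (up to 0.0727, without normoosmotic replicate 3). Nlrx1, a mitochondrial protein described as an inhibitor of MAVS signalling, was 4.42 ± 0.14 in hypoosmotic and 3.94 ± 0.20 in normoosmotic livers (adjusted p = 0.0414), and passed in 2 of the 8 (up to 0.124, without normoosmotic replicate 3). Usp18, which removes ISG15 from proteins and dampens the receptor, had a difference of 0.18 ± 0.34 (adjusted p = 0.850).

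Trim14 is set beside its family as a description only, since it was chosen on this difference. Of the 42 other measured TRIM genes 2 rose and 2 fell (9.52%, against 7.07% of all genes). By limma 6 of the 42 had an unadjusted p under 0.05 (14.3%, against 20.7% of all genes). Their differences ran from -0.80 to 0.75 with a median of 0.02. Trim35, a ubiquitin ligase, was 4.34, 4.62, 4.02 and 4.23 in hypoosmotic livers, against 3.74, 3.83, 3.50 and 3.13 in normoosmotic livers. Its groups stood apart (0.75 ± 0.17 SE, adjusted p = 0.0249), and it passed in 4 of 8 fits without 1 array (up to 0.0715, without normoosmotic replicate 3). Trim2 rose by 0.39 ± 0.10 (adjusted p = 0.0375), but passed in 1 of the 8 (up to 0.0969, without normoosmotic replicate 2) and not after median centring (0.0562), with the replicate number as a block (0.0704) or with an intensity trend (0.0540).

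The falls were those of Trim27 and Trim28. Trim27, a ubiquitin ligase, was 5.62, 5.66, 5.06 and 5.76 in hypoosmotic livers, against 6.25, 6.13, 6.47 and 6.44 in normoosmotic livers (difference -0.80 ± 0.16 SE, adjusted p = 0.0136). Trim28, the corepressor of Krueppel-associated box zinc finger proteins, was 6.76, 6.58, 6.94 and 6.92 in hypoosmotic livers, against 7.42, 7.23, 7.54 and 7.51 in normoosmotic livers (-0.62 ± 0.12, adjusted p = 0.0118). Both had separate groups and passed in each of the 8 leave-one-out fits. The count of TRIM rises was 0 without hypoosmotic replicate 1 or 2 or normoosmotic replicate 3 or 4, and 1 without hypoosmotic replicate 3 or normoosmotic replicate 1 or 2. Trim25, which activates RIG-I, and Trim21, a cytosolic antibody receptor, are interferon-induced members of the family. Trim25 had a difference of 0.28 ± 0.21 (adjusted p = 0.529) and Trim21 one of -0.08 ± 0.22 (adjusted p = 0.896).

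**Figure D5:**
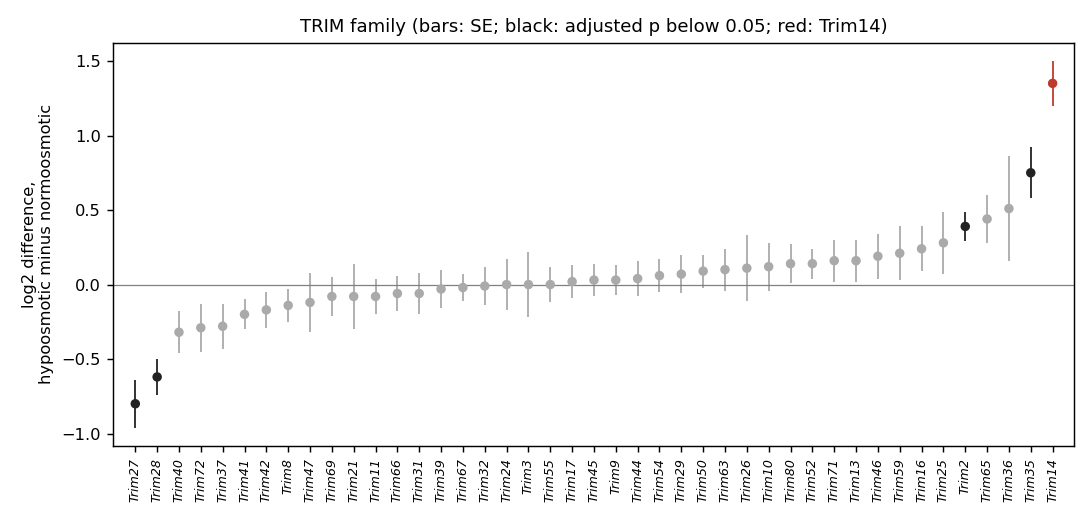
Log2 difference, hypoosmotic minus normoosmotic (vertical axis), of Trim14 (red) and 42 other TRIM genes in order of size, with bars of 1 SE. The 4 black points passed (limma, adjusted p under 0.05), 2 above and 2 below 0. Trim14 is at 1.35, a place fixed by its having been chosen on this difference.

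The genes whose pattern was most like that of Trim14 were found by the root mean square difference over the 8 arrays after each gene was centred on its own mean. Among 14510 genes the closest was Fam110c (0.188), at 5.39, 6.07, 5.80 and 5.98 in hypoosmotic livers, against 4.46, 5.01, 4.71 and 4.84 in normoosmotic livers. In both groups Fam110c, like Trim14, was lowest on replicate 1 and highest on replicate 2. Next came Pmaip1, which encodes the cell death protein NOXA (0.213), Slpi, a secreted protease inhibitor (0.222), and Mpzl2, an adhesion protein (0.224). Lyz2, a lysozyme of macrophages (0.229), and Gpcpd1, an enzyme that hydrolyses glycerophosphocholine (0.238), completed the 6. All 6 had groups without overlap and differences from 0.99 (Lyz2) to 1.40 (Gpcpd1), which closeness to Trim14 by this measure favours.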

How the data were processed

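Expression was measured on 8 Affymetrix arrays, and the authors deposited log2 values for 27596 probe sets. The submitters' processing notes name RMA, Transcriptome Analysis Console 4.0 and Affymetrix Expression Console without giving the part of each. Quantile steps such as that of RMA equalise arrays and would hide a shift common to most genes. The genome build of the probes is not given in the sources used here.

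Names came from the 2016 platform annotation, with symbols updated by gene identifier. Of them 15316 had 1 symbol, 317 several and 11963 none here. Where several probe sets named 1 gene, that of highest mean stood for it, leaving 14511 genes, and each member had 1. Differences were fitted with limma 3.58.1 (R 4.3.3, functions lmFit and eBayes, group as the only term), with Benjamini-Hochberg adjustment over all genes, both tails and a threshold of 0.05. The code was tested on simulated data. Python 3.11.15, pandas 2.3.3, scipy 1.17.1 and matplotlib 3.10.9 did the rest.

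The members and the gene lists were chosen with earlier results of these data known. Genes named were the members, 17 fixed names where measured, up to 6 that passed per list and in the TRIM family, and the 6 most like Trim14. Jak1, Irf2, Socs1, Ifit1, Ifit3, Rsad2, Kdr and Oit3 were named after their values were seen, and the near-background level was added then. Cmpk2, Mx2 and Oasl2 entered the search for far values in the same way. Promoters were those of RefSeq, build GRCr8. Settings tried besides were array weights, the replicate number as a block, robust variances with a trend in intensity, quantile normalization, median centring, leaving out the dimmest 30% of genes, averaging probe sets, and leaving out each array.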

Additional observations from a re-analysis of the deposited data

Results flagged for a closer look

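Values that stood far from the other 3 of their group were looked for in each group of 48 genes (Dixon's test at the 95% level). These were the members, the genes named from the pathway and TRIM lists with 3 further effectors, and those most like Trim14, but no marker gene. Among them Jak1, Irf2, Socs1, Ifit1, Ifit3, Rsad2, Cmpk2, Mx2 and Oasl2 were taken in after their values were seen. Chance alone marks about 1 in 20 groups. With genes taken in that way, the count of marked groups cannot be compared with that share. Of 96 groups 8 were marked. On hypoosmotic replicate 3, Stat2 was 6.84 (the others 7.68 to 7.79), Irf9 was 6.72 (the others 7.13 to 7.20) and Irf2, an IRF family repressor, was 7.32 (the others 7.89 to 7.96). Gpcpd1 was 7.18 on the same array, above the others at 6.85 to 6.89. On normoosmotic replicate 1, Stat2 was 6.90 (the others 7.46 to 7.56).

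Ifit1, an effector that binds foreign RNA caps, was 9.68 on hypoosmotic replicate 4, while the other 3 hypoosmotic arrays lay between 1.97 and 2.44 and the normoosmotic arrays at 1.65, 1.79, 1.66 and 1.91. On every array but hypoosmotic replicate 4 Ifit1 lay under the near-background level of 3.07. Its difference was 2.29 ± 1.39 (SE, limma adjusted p = 0.409), and 0.41 without that array. Of the 46 effectors 3 were the highest of the hypoosmotic group on that array. Socs1, an inhibitor of Janus kinases, was 8.14 on hypoosmotic replicate 2 (the others 6.29 to 6.56). Trim2 was 4.54 on normoosmotic replicate 2 (the others 4.73 to 4.75).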

How the results depend on the processing

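The difference of Trim14 was 1.31 to 1.38 under the 7 alternatives that kept all arrays and 1.24 to 1.48 with 1 array left out. Median centring gave 235 genes higher and 733 lower over all genes, against 356 and 670, and of the pathway lists 4 higher and 5 lower. Array weights also gave 5 lower pathway genes. For the TRIM family 1 gene rose with the replicate block, with an intensity trend and after median centring. Leaving out 1 array gave 137 to 392 higher and 331 to 659 lower over all genes, 1 to 7 higher and 1 to 3 lower in the pathway lists, and 0 to 2 higher and 2 lower in the TRIM family. Fewer arrays also mean fewer degrees of freedom. Same-numbered arrays had deviations from their group means that correlated at 0.00613, 0.257, 0.116 and 0.0627. The labels do not say whether the numbers pair the samples, and these values cannot decide it. With the replicate block 417 genes were higher and 612 lower, 5 and 4 in the pathway lists, and Nlrx1 (adjusted p = 0.0650) did not pass. Without the dimmest 30% of genes Aim2 was not tested. Raw array files were not used here, so another background correction was not run.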

Other observations

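Ifng and Socs1 were both highest on hypoosmotic replicate 2, at 5.41 and 8.14. On that array 36 of the 46 interferon-induced effectors were the highest of the hypoosmotic group. T and NK cell markers, most of them near background, summed to 123, 177, 148 and 113 in hypoosmotic livers. They too were highest there, and the part of these cells was not tested.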
